A study of Mus musculus with 4 samples.

Results

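Type 2 cytokine and alternative activation transcripts were examined in the middle ear of mice exposed to diesel exhaust particles (DEPs). The 9 genes were the type 2 cytokines Il4, Il5 and Il13, the alarmin cytokines Il33, Il25 and Tslp, the interleukin-33 receptor Il1rl1, and the alternative activation genes Chil3 and Retnla. They were chosen by name. All non-control probes whose target accession maps to 1 of these symbols were taken, which gave 11 of the 39429 probes on the array. Il1rl1 had 3 probes and each other gene had 1. A mean ratio could be tested for 10 of these probes and 8 of these genes, among 31577 probes and 25694 genes in all.

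The mice were male BALB/c animals, 6 to 10 weeks old, and no genetic modification is given in the labels. The DEP ear came from mice given DEPs by inhalation, 1 h daily over 5 days, and killed on day 14, and the control ear is labelled as a control without a stated vehicle. Each of 4 two-colour arrays carried 1 extract labelled DEP ear in the red dye Cy5 and 1 labelled control ear in the green dye Cy3, with no dye swap. A dye preference of a probe and an effect of exposure therefore cannot be told apart. The tissue was the temporal bone area with the middle ear, so marrow, muscle, nerve and mucosa can all contribute RNA. In such bulk tissue, fewer cells of a type and less RNA per cell cannot be told apart. The study used 9 mice, and how many mice stand behind an extract is not given in the sources used here. The p-values thus measure the spread between these arrays, which may be in part technical.

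Type 2 immunity is the response to worms and allergens. Injured epithelium releases the alarmins interleukin-33, interleukin-25 and thymic stromal lymphopoietin (Tslp), which act on innate lymphoid cells, mast cells and T helper cells. These cells then release interleukin-4, interleukin-5 and interleukin-13. Interleukin-4 and interleukin-13 signal through the receptor chain Il4ra and the transcription factor STAT6, and macrophages exposed to them turn on Chil3 (the chitinase-like protein Ym1) and Retnla (the secreted protein Fizz1). This macrophage state is called alternative activation, in contrast to the classical state that interferon gamma and microbial products induce. Chil3 is also made by neutrophils and their marrow precursors.

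The promoters of Retnla, Chil3, Il1rl1 and Il33 are shown because these genes were measured throughout, that is, above background in Cy5 and Cy3 on each array, and those of Retnlg and Chil4 because these paralogues were measured beside them. Each sequence runs 5′ to 3′ from 250 bases before to 50 bases after the annotated start, in RefSeq assembly GRCm38.p6, which may differ from the BALB/c sequence. Capitals mark letters that match a STAT motif, TTC and GAA with 3 or 4 bases between them, or the C/EBP motif TTGCNNAA, searched on both strands.
Retnla, chr16:48842359-48842658, plus strand: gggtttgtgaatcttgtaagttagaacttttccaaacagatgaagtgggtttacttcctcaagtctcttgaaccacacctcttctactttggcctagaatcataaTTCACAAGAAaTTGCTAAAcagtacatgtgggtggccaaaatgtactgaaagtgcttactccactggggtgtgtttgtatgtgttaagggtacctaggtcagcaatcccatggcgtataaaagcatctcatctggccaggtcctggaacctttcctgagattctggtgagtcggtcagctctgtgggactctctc
Retnlg, chr16:48872358-48872657, plus strand: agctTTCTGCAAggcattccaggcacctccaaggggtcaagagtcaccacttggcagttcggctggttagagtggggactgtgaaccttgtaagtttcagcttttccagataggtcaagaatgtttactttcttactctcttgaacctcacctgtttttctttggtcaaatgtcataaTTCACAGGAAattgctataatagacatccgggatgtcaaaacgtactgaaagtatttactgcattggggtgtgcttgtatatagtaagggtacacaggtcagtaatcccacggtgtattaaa
Chil3, chr3:106167515-106167814, minus strand: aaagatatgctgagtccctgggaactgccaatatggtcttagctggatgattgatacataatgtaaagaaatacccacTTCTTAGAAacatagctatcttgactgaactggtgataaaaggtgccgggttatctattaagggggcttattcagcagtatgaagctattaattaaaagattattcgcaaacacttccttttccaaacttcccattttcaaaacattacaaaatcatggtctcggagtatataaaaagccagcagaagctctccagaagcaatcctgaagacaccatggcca
Chil4, chr3:106219430-106219729, minus strand: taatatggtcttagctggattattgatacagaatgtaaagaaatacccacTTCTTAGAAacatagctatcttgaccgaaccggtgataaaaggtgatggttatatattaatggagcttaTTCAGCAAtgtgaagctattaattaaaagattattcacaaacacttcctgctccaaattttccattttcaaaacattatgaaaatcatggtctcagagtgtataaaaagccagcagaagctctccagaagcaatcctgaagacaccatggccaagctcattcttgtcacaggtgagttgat
Il1rl1, upstream start, chr1:40429320-40429619, plus strand: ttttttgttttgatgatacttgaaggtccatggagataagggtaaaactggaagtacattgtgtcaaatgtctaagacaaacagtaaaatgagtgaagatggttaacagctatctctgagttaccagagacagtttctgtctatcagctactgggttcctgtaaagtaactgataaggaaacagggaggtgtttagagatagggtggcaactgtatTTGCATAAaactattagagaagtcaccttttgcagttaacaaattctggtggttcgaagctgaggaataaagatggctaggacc
Il1rl1, downstream start, chr1:40439379-40439678, plus strand: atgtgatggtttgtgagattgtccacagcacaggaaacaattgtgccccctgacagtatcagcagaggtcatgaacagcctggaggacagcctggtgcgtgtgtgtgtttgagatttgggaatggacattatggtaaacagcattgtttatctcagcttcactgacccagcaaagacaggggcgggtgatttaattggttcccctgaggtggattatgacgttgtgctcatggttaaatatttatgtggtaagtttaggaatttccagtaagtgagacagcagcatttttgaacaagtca
Il33, upstream start, chr19:29924863-29925162, plus strand: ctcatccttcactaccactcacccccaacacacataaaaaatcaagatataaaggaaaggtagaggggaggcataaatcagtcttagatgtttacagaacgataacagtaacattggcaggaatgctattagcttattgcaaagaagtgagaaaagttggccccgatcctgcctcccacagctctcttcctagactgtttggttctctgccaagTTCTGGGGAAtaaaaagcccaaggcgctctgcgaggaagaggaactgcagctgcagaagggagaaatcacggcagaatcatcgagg
Il33, downstream start, chr19:29945540-29945839, plus strand: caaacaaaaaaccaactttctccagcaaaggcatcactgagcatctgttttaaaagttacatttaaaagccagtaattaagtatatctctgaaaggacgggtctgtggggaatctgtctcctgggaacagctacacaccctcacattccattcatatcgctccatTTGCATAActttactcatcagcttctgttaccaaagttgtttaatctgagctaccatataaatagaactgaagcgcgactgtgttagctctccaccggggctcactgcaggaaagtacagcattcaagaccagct
Retnla held a 4-base-spaced STAT match 145 bases before the start, and its C/EBP match began 134 bases before it, on neighbouring letters. Retnlg also held the 4-base-spaced form. Chil3 and Chil4 held the same 3-base-spaced match, TTCTTAGAA, and in the best local alignment of their windows 251 of 272 columns were identical (92.3%). For Retnla and Retnlg it was 178 of 228 columns (78.1%), with the windows shifted against each other, and the STAT matches of both genes lie within that stretch. The best local alignments of promoters from different families were short, with 54 columns for Chil3 and Retnlg and 27 for Chil3 and Retnla. Neither Il1rl1 promoter held a STAT match, and the upstream one held a C/EBP match 34 bases before the start. The upstream Il33 promoter held a 4-base-spaced STAT match 36 bases before the start, and the downstream one a C/EBP match 85 bases before it. Among 32851 promoters of 300 bases, 8.3% held the 3-base-spaced STAT motif, 6.95% the 4-base-spaced one and 10.8% the C/EBP motif. A match is a description of the letters and not evidence of binding.

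The 9 genes fell into a set that was measured throughout and a set near background. Chil3, Retnla, Il33 and Il1rl1 were well above background in Cy5 and in Cy3 on each of the 4 arrays by the image software's own test. Il4, Il13 and Tslp were above background on 1 or 2 arrays in Cy5 and on no array in Cy3. Il5 and Il25 were above background on no array in either channel. No member rose or fell by the test. The log2 ratios of Cy5 over Cy3, that is of labelled DEP over labelled control, were tested against 0 in limma (moderated, two-sided). P-values were adjusted by Benjamini and Hochberg's method across every probe tested, and a call needed an adjusted p under 0.05. That test called 0 genes, or 0.0% of those tested, with a smallest adjusted p of 0.0922. At an unadjusted p under 0.05 it picked 4800 genes, or 18.7%, and an ordinary test without moderation called 0 genes after adjustment.

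The sign of these ratios opposes the direction that the study gives. Of 25 tested genes on its list of raised transcripts 24 had a mean ratio below 0, and of 11 on its list of lowered transcripts 9 had a mean above 0. Over the genes measured throughout, all 9 of the first list had a mean below 0, while the 4 of the second were split, 2 above 0 and 2 below. The opposition in the second list thus rests on genes not above background in both channels on each array. Which channel holds the exposed ear was taken from the source names in the labels, which list both treatments under a single channel elsewhere. All signed values therefore rest on those source names, and every "higher" or "lower" here would turn if the channels were exchanged.

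With that reading, the 8 tested members all had a mean ratio above 0 by their brightest probe. Over all genes the share above 0 was 54.2%. Il13 was the only member whose mean ratio passed 2-fold, against 6.75% of all genes. Il4, Il13, Il1rl1 and Retnla had an unadjusted p under 0.05 by limma, against 18.7% of all genes. Among the 18340 genes measured throughout, 12.6% had an unadjusted p under 0.05 and 3.15% passed 2-fold. Of the 4 members measured this well, Il1rl1 and Retnla had such a p and none passed 2-fold.

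**Figure D1:**
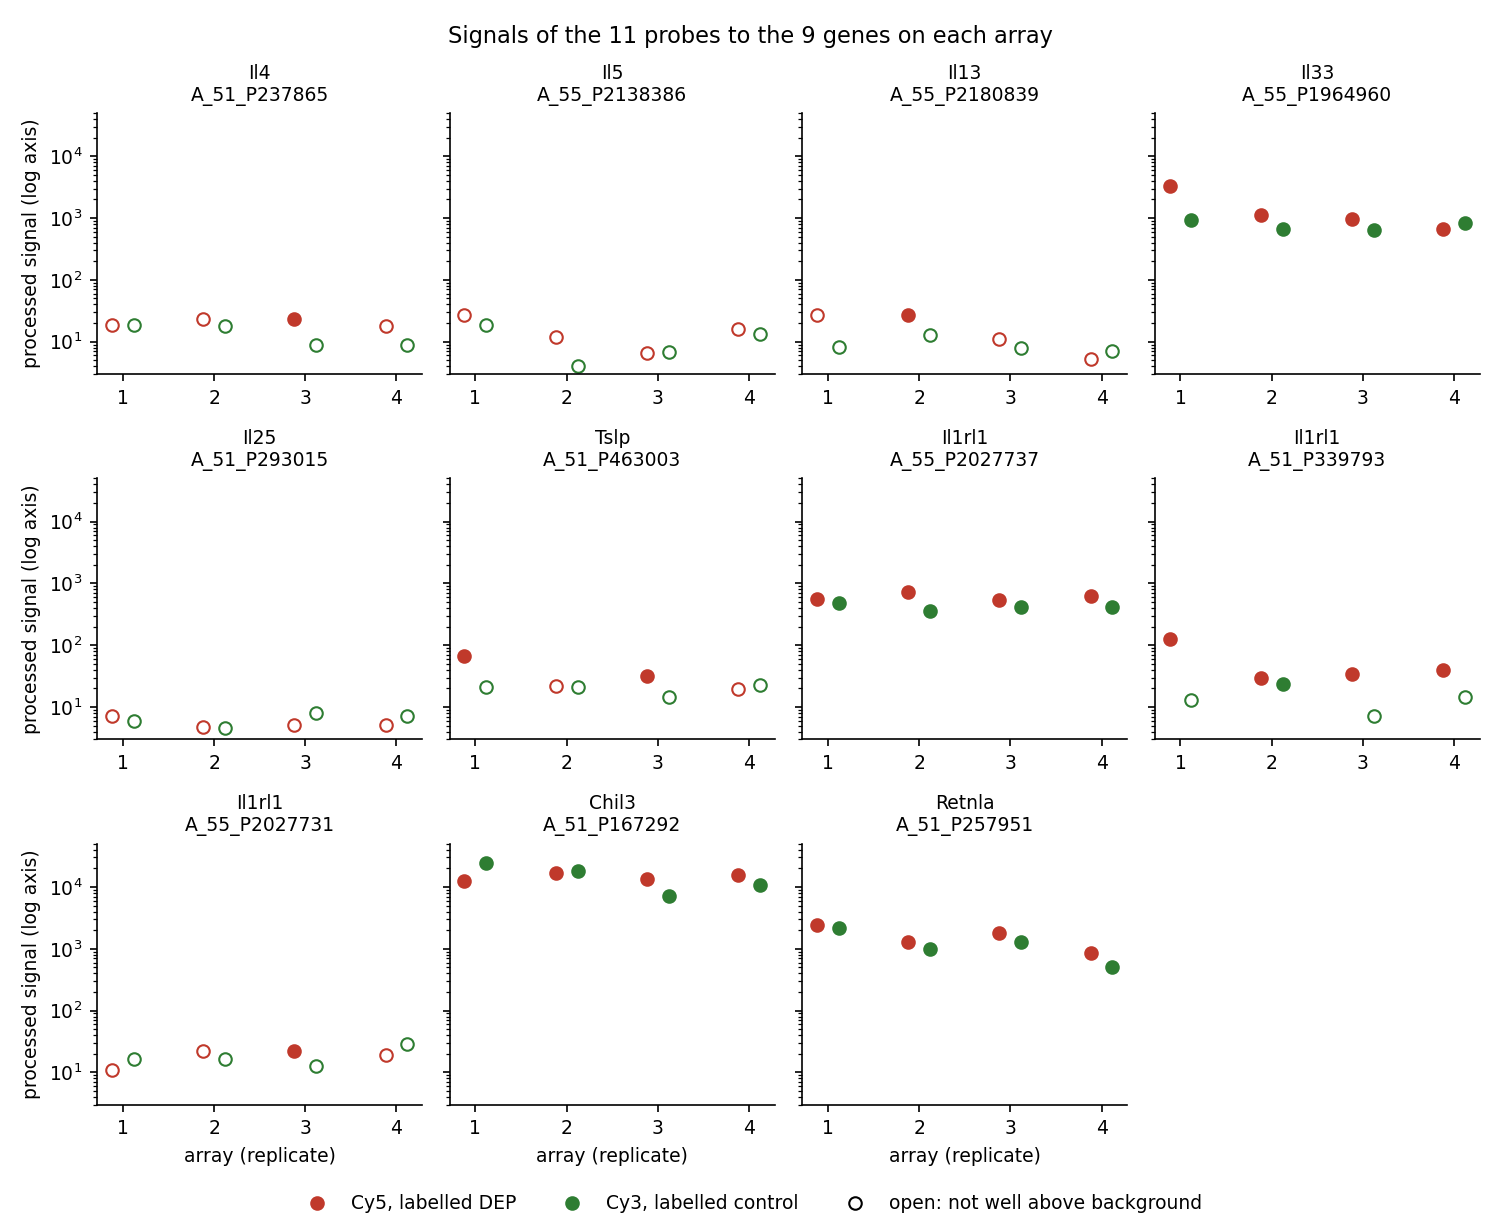
Processed signal (log axis) of the 11 probes on the 4 arrays, Cy5 (labelled DEP) in red and Cy3 (labelled control) in green. Open circles are not well above background; Chil3, Retnla, Il33 and 1 Il1rl1 probe are filled throughout.

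The type 2 cytokines lay near the limit of the arrays. Il4, which drives T helper 2 differentiation and class switching to IgE, was spotted 10 times on each array. Its mean signals over the spots used were 18.8, 23.3, 23.4 and 17.8 in Cy5 and 18.9, 17.96, 8.99 and 8.75 in Cy3 on arrays 1 to 4. The Cy3 signals of arrays 3 and 4 were the low ones, and the ranges of the channels overlapped. The log2 ratio was higher in Cy5 in 6 of 9 spots used on array 1, 8 of 9 on array 2, 9 of 9 on array 3 and 10 of 10 on array 4. Averaged per array it was -0.01, 0.37, 1.38 and 1.03, a mean of 0.69 ± 0.62 (SD, n = 4 arrays, limma's SE 0.26, unadjusted p = 0.0455, adjusted p = 0.261). Spots of 1 array are repeat readings of the same extracts and not replicates. The probe was well above background on array 3 in Cy5 alone.

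Il13, the cytokine of mucus production and airway reactivity, had Cy5 signals of 27.4, 26.6, 10.9 and 5.26 and Cy3 signals of 8.11, 12.97, 7.91 and 7.02. It passed the background test once, in Cy5 on array 2. Its 3 log2 ratios of 1.76, 1.03 and 0.46 averaged 1.08 ± 0.65 (SD, n = 3 arrays), with limma's adjusted p = 0.208. Array 4, where the Cy3 signal was the higher one, has no ratio in the deposited values and is not in that mean. Il5, the growth and survival factor of eosinophils, had Cy5 signals of 26.8, 11.7, 6.61 and 15.9 and Cy3 signals of 18.6, 4.07, 6.82 and 13.2. Its 3 ratios averaged 0.77 ± 0.66 (SD, n = 3 arrays), with limma's adjusted p = 0.289, and array 3 had no ratio. Without array 2 the mean was 0.40. Levels this low bound what can be said, since among probes above background in neither channel the middle 90% of log2 ratios ran from -1.34 to 1.43 on array 1, from -1.41 to 1.33 on array 2, from -1.81 to 0.96 on array 3 and from -1.61 to 1.23 on array 4. Of the ratios with neither channel above background, Il13 on array 1 at 1.76 and Il5 on array 2 at 1.52 lay above these ranges.

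Under normexp background correction with median centring, the mean log2 ratio was -0.02 for Il4, -0.08 for Il5 and -0.17 for Il13. With normexp and loess it was 0.15, 0.10 and 0.02, so all 3 kept their direction and were far closer to 0. Of the listed genes within or beside the type 2 cytokine cluster, 4 had a probe. Rad50, Irf1 and Septin8 had a mean ratio above 0 by their brightest probe, and Kif3a, a ciliary motor subunit, had one below. The second Septin8 probe, A_55_P1981670, was lower in Cy5 on all 4 arrays at -0.74 ± 0.25 (SD, n = 4 arrays), against 0.12 for the brightest, and the second Rad50 probe was at -0.05. By its brightest probe Kif3a was lower in Cy5 on all 4 arrays and averaged -0.77 ± 0.46 in log2 ratio (SD, n = 4 arrays), with Cy3 signals of 1731 to 3731. The second Kif3a probe averaged -0.52 ± 0.36 (SD, n = 4 arrays) and was lower on 3 of the 4 arrays, with a log2 ratio of 0.02 on array 4.

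Of the alarmins, Il33 alone was well measured. It encodes a nuclear cytokine of barrier epithelium, endothelium and fibroblastic cells that is released on injury. Its Cy5 signals were 3324, 1128, 968 and 671 and its Cy3 signals 922, 670, 631 and 823. The Cy5 signal of array 1 was the high one, and on array 4 the order of the channels turned. The signals differed 4.95-fold between the highest and lowest array in Cy5 and 1.46-fold in Cy3. The log2 ratios of 1.85, 0.75, 0.62 and -0.29 averaged 0.73 ± 0.88 (SD, n = 4 arrays), a 1.66-fold mean with a 95% interval from -0.18 to 1.64 on the log2 scale and limma's adjusted p = 0.335. The mean was 0.36 without array 1 and 1.07 without array 4. Under normexp background correction with median centring it was 0.94, with limma's unadjusted p = 0.0216 and adjusted p = 0.0866. In the main test the difference was within the spread between arrays.

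Tslp, an alarmin that primes dendritic cells, had signals of 68.1, 21.6, 32.4 and 19.6 in Cy5 and of 21.3, 21.3, 14.5 and 22.6 in Cy3. It passed the background test in Cy5 on arrays 1 and 3, the arrays with the high signals, and never in Cy3. Its log2 ratios of 1.68, 0.02, 1.16 and -0.21 averaged 0.66 ± 0.90 (SD, n = 4 arrays, limma's adjusted p = 0.378). Without array 1 the mean was 0.33. Il25, the alarmin of tuft cells, had signals of 4.73 to 7.07 in Cy5, of 4.58 to 7.99 in Cy3, and no ratio on any array. Its level was below what these arrays could detect in either channel.

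Il1rl1 encodes ST2, the receptor chain for interleukin-33 on mast cells, T helper 2 cells, regulatory T cells and innate lymphoid cells. A longer transcript encodes the membrane receptor and a shorter one the soluble decoy. The brightest probe, A_55_P2027737, is annotated to the longer transcript. Its signals were 560, 734, 532 and 636 in Cy5 and 488, 364, 408 and 423 in Cy3. The lowest Cy5 signal was above the highest Cy3 signal, so the channels did not overlap. Such separation was found in 1.43% of the 18340 genes measured throughout, and a ratio above 0 on all 4 arrays in 15.4%. The log2 ratios of 0.20, 1.01, 0.38 and 0.59 averaged 0.55 ± 0.35 (SD, n = 4 arrays), a 1.46-fold mean with a 95% interval from 0.12 to 0.98 on the log2 scale. Limma gave an unadjusted p = 0.0224 and an adjusted p = 0.211. Signals of 1 channel were not scaled between arrays.

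The other Il1rl1 probes were dim. Probe A_51_P339793, annotated to the shorter transcript, had Cy5 signals of 126, 29.8, 34.5 and 39.4, all above background. Its Cy3 signals were 13.2, 23.5, 7.05 and 14.4, above background on array 2 alone. The log2 ratios were 3.25, 0.34, 2.29 and 1.45, higher in Cy5 on all 4 arrays, and averaged 1.83 ± 1.24 (SD, n = 4 arrays, limma's adjusted p = 0.184). With normexp the mean was 0.50 after loess and 0.38 after median centring. On array 2, where both channels were measured, the ratio was the smallest of the set. Probe A_55_P2027731, annotated to the longer transcript, was above background once and averaged 0.01 ± 0.71 (SD, n = 4 arrays). The 3 probes of the gene therefore did not give 1 common value.

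The related receptors of the interleukin-1 family that lie with Il1rl1 among the paralogues were read on the same scale. Il18r1, the interleukin-18 receptor chain, averaged 0.75 ± 0.27 in log2 ratio (SD, n = 4 arrays). Il1r1, the interleukin-1 receptor, had 0.63 ± 0.20 (SD, n = 4 arrays). Both were higher in Cy5 on all 4 arrays, and neither passed limma's test after adjustment. Il1rl2, the interleukin-36 receptor, was above background on no array.

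**Figure D2:**
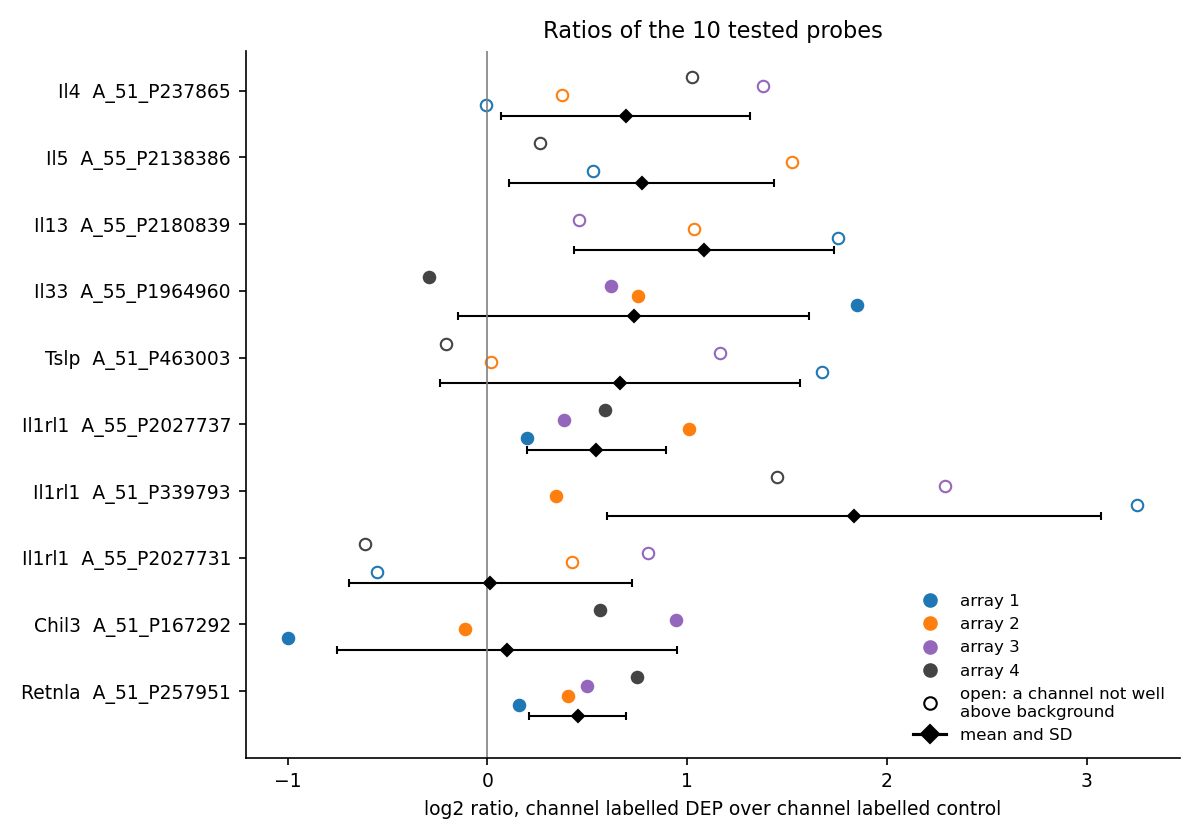
Log2 ratios of the 10 tested probes, labelled DEP over labelled control, 1 circle per array and a diamond with bars for the mean and SD. Open circles have a channel not well above background; Retnla and 2 Il1rl1 probes are above 0 on all 4 arrays, and Chil3 is split between arrays 1 and 2 below 0 and arrays 3 and 4 above.

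Retnla had the narrowest spread of the members. It encodes a small secreted protein of macrophages, eosinophils and airway epithelium. Its signals were 2385, 1306, 1815 and 866 in Cy5 and 2138, 989, 1284 and 516 in Cy3. The Cy5 signal was the higher one on each array, while the ranges of the channels overlapped because both channels were high or low on the same arrays. The log2 ratios of 0.16, 0.40, 0.50 and 0.75 averaged 0.45 ± 0.24 (SD, n = 4 arrays), a 1.37-fold mean with a 95% interval from 0.10 to 0.80 on the log2 scale. Limma gave an unadjusted p = 0.0211 and an adjusted p = 0.207. With normexp and median centring the mean was 0.67 for Retnla and 0.65 for the brightest Il1rl1 probe, and both passed at adjusted p = 0.0375 and 0.0388. That setting called 11% of all genes.

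Chil3 gave strong signals and showed no common direction. Its Cy5 signals were 12450, 16980, 13680 and 15840. Its Cy3 signals were 24860, 18330, 7119 and 10710. The Cy5 signals varied 1.36-fold over the arrays and the Cy3 signals 3.49-fold, and the sign of the ratio turned with the Cy3 signal. Over the 18340 genes measured this well the median range was 1.66-fold in Cy5 and 1.78-fold in Cy3, and 55.9% had the wider range in Cy3. The log2 ratios of -0.998, -0.111, 0.94 and 0.56 averaged 0.10 ± 0.85 (SD, n = 4 arrays, limma's adjusted p = 0.890). The mean was -0.18 without array 3, -0.06 without array 4 and 0.47 without array 1. With normexp and median centring it was 0.68, with limma's adjusted p = 0.169. Retnla was higher in Cy5 on each array and Chil3 on arrays 3 and 4 alone, while both had their lower ratios on arrays 1 and 2. The difference between the genes was not tested.

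The paralogues were compared with the members next to them. All 7 of the 9 listed paralogues that could be tested had a mean ratio above 0, with a median of 0.63, and Retnlb and Il1rl2 were above background on no array. Chil4, the near neighbour of Chil3, had signals of 110, 140, 98.5 and 115 in Cy5 and 160, 131, 35.3 and 76.1 in Cy3, with the Cy3 signal of array 3 not above background. Its log2 ratios of -0.54, 0.09, 1.48 and 0.60 went from array to array as those of Chil3 did. The 2 genes are alike in sequence, and whether their probes read each other's transcript was not tested. Retnlg, a resistin-like gene of neutrophils, had log2 ratios of -0.90, 0.16, 1.05 and 0.42, where Chil3 had -0.998, -0.111, 0.94 and 0.56. Of 154 listed genes measured throughout, Retnlg was the one nearest to Chil3, with a root mean square difference of 0.17 over the 4 ratios. Of all genes measured throughout, 0.0436% lay nearer to Chil3 than Retnlg did. Ctsg, of the neutrophil and precursor markers, was the next listed gene at 0.27, with 0.382% nearer. Retn, the adipocyte hormone resistin, averaged 0.66 ± 0.49 (SD, n = 4 arrays) and was higher in Cy5 on all 4 arrays. The other chitinase family genes, Chil1 and Chia1, had means of 0.18 ± 0.30 and 0.90 ± 1.36 (SD, n = 4 arrays).

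By the same measure, the listed gene nearest to Il33 was Traf3ip2, the adaptor of interleukin-17 receptors, at 0.16, followed by Pparg at 0.24. Cidec at 0.27 and Ccl11 at 0.28 were nearest to Il1rl1, and Cd86 at 0.16 and Il2rg at 0.17 to Retnla. Among the 18340 genes measured throughout, others lay nearer than these listed ones. The share was 0.104% for Traf3ip2 and 0.322% for Pparg beside Il33, 1.1% for Cidec and 1.17% for Ccl11 beside Il1rl1, and 0.420% for Cd86 and 0.731% for Il2rg beside Retnla. This likeness is a description over 4 arrays, and no test was run on it.

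The cells named by the markers were present in the bulk RNA, and some lists had ratios close to those of members. The 14 neutrophil and precursor markers had median log2 ratios of -0.79, 0.01, 0.73 and 0.40 on arrays 1 to 4, within 0.22 of Chil3 on each. Their summed signal was 373000 to 540900 over the Cy5 extracts and 287000 to 813300 over those in Cy3, and none was below background on all arrays. By mean ratio 8 of the 14 were higher and 6 lower, and the brightest were S100a9, S100a8 and Camp, granule and cytosolic proteins of neutrophils. The 11 macrophage markers with a probe had medians of -0.26, 0.06, 0.41 and 0.64, beside 0.16, 0.40, 0.50 and 0.75 for Retnla. Their summed signal was 46630 to 70410 over the Cy5 extracts and 57400 to 80740 over those in Cy3, and 8 were higher and 3 lower. The log2 ratios of these sums were -0.30, 0.04, -0.45 and -0.20, so on arrays 3 and 4 they were below 0 and the medians above. The part of these cell types in the values of Chil3 and Retnla was not tested.

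**Figure D3:**
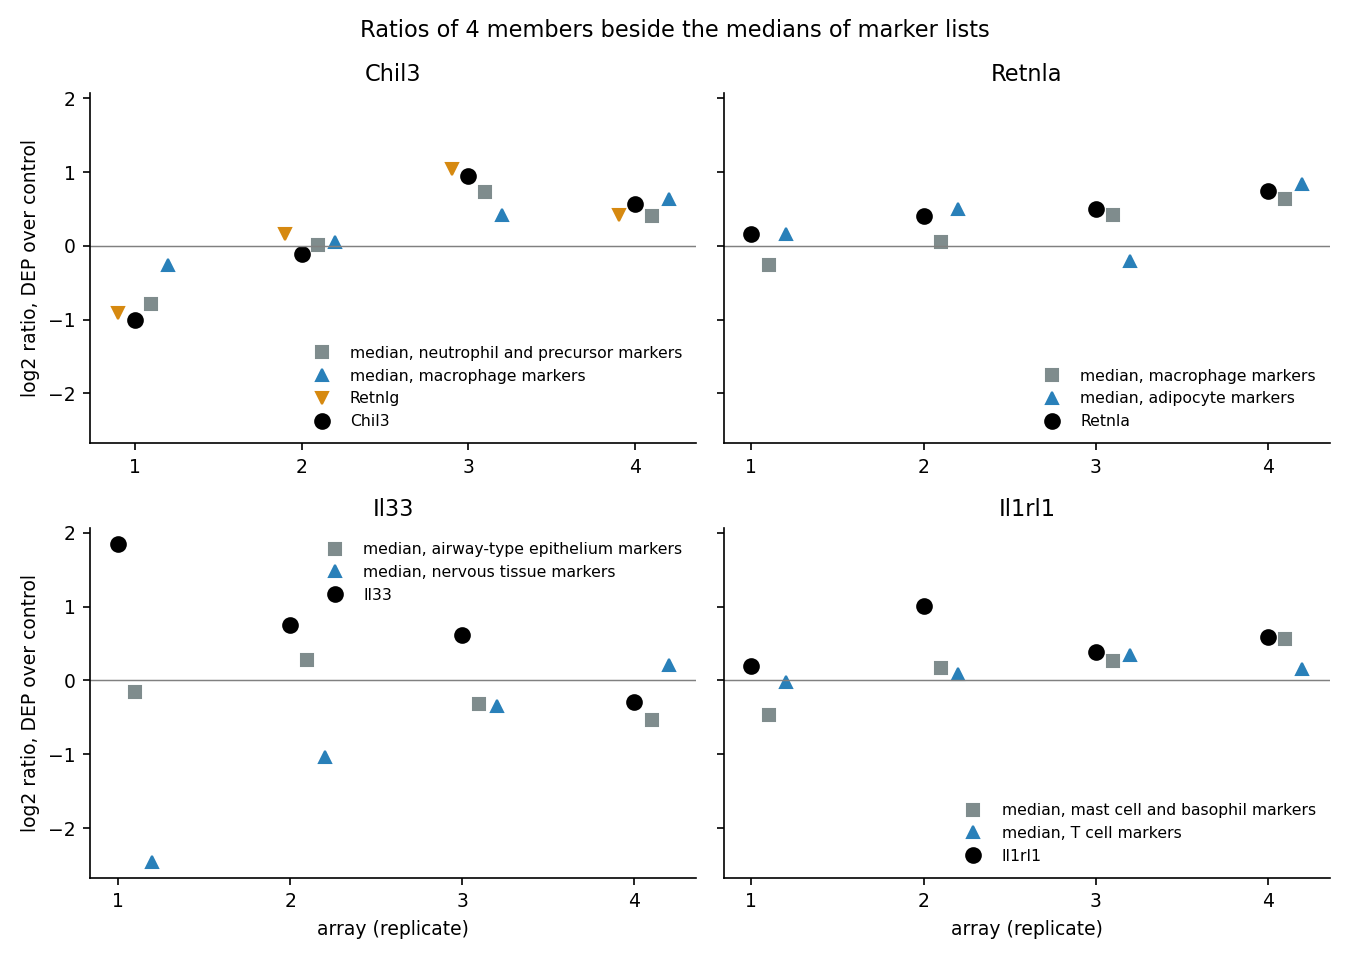
Log2 ratios per array (DEP over control) of Chil3, Retnla, Il33 and Il1rl1 as black circles, beside the median ratio of 2 marker lists each and, for Chil3, of Retnlg. Chil3 lies within 0.22 of the neutrophil median on each array, and Il33 on array 1 lies at 1.85 where the nervous tissue median is at -2.46.

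Eosinophil markers were read beside Il5 and Il4. All 9 eosinophil markers had a mean ratio above 0, with a median of 1.30, and 6 passed 2-fold, against 6.75% of all genes. By limma 1 of the 9 had an unadjusted p under 0.05 and none an adjusted p under 0.05. The median log2 ratios of the list were -0.50, 0.49, 3.24 and 2.17 on arrays 1 to 4, so the mean ratios rest on arrays 3 and 4. Prg2, the major basic protein of the granule, had Cy5 signals of 13080, 17050, 15520 and 14850. Its Cy3 signals were 24310, 12740, 1640 and 3311. The Cy5 signals were near level, and the low values were those of Cy3 on arrays 3 and 4. Ear2, an eosinophil ribonuclease, had Cy5 signals of 12430, 16360, 14810 and 14470 and Cy3 signals of 17230, 9916, 1060 and 2234, and Ear6 was lowest on the same arrays in Cy3, at 696 and 1172. The Ear genes are close paralogues whose probes may share transcripts. The summed eosinophil signal was 35900 to 47460 over the Cy5 extracts and 3885 to 56580 over those in Cy3. Il4 also had its largest log2 ratios on arrays 3 and 4, at 1.38 and 1.03, the arrays with the highest eosinophil medians. On these arrays the lowest Cy3 signals above background were 36.5 and 33.2, against 23.3 and 20.8 on arrays 1 and 2. Il4 was under these levels in Cy3 on each array. With normexp the mean log2 ratio of Il4 was 0.15 after loess and -0.02 after median centring. The part of eosinophils in the Il4 values was not tested.

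**Figure D4:**
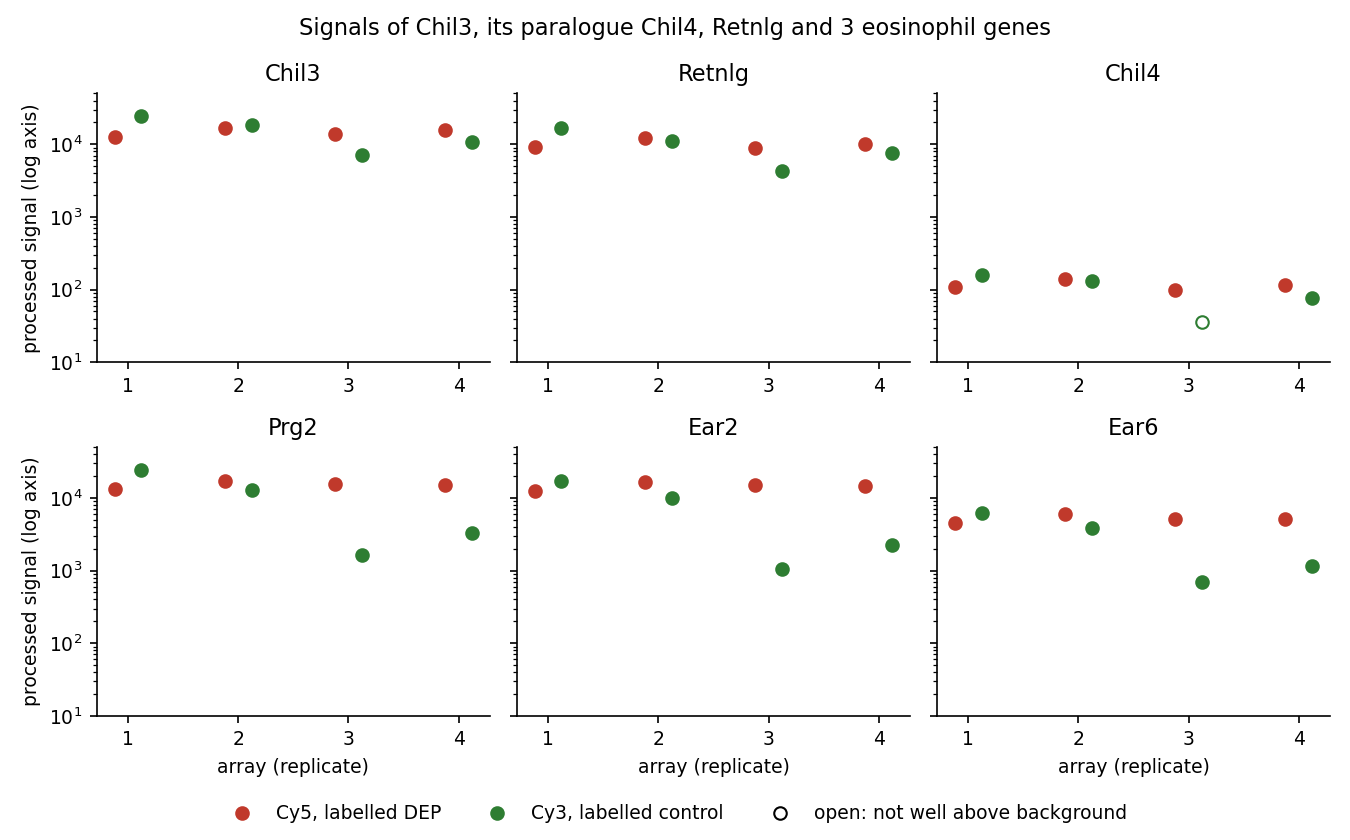
Processed signals (log axis) per array of Chil3, its paralogue Chil4, the neutrophil gene Retnlg and the eosinophil genes Prg2, Ear2 and Ear6, Cy5 (labelled DEP) in red and Cy3 (labelled control) in green. In each of the 6 genes the Cy3 signal is highest on array 1 and lowest on array 3, and the Cy5 signals stay close together.

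The other cell types were read in the same way. Mast cell and basophil markers, which include cells that carry ST2, had medians of -0.46, 0.16, 0.26 and 0.57, with 7 of 9 tested markers higher. Their summed signal was 8188 to 10080 over the Cy5 extracts and 7079 to 11120 over those in Cy3, and Ms4a2 was above background on no array. T cell markers had medians of -0.02, 0.09, 0.35 and 0.16, with 6 of 8 higher, and Cd8a and Trat1 were above background on no array. On array 2, where Il1rl1 was at 1.01, the medians of both lists were at 0.16 and 0.09. The airway-type epithelium markers, 4 higher and 6 lower of 10, had medians of -0.15, 0.28, -0.31 and -0.54 beside Il33 at 1.85, 0.75, 0.62 and -0.29. The log2 ratios of their summed signal were 0.57, 0.48, -0.81 and -0.52, of the other sign on array 1. Bpifa1, Krt5 and Muc5b were the brightest of these markers, so mucosa was present in the extracts. They were not alike, as Krt5 ranged from -1.24 to 2.17 over the arrays and Muc5b from -2.51 to -0.49. Endothelial markers had 2 of 7 higher with a median of -0.06, and fibroblast markers 4 of 7 higher with a median of 0.13.

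Nervous tissue markers were mostly lower in Cy5. Of 13 tested, 12 had a mean ratio below 0, and the medians were -2.46, -1.04, -0.35 and 0.21. Their summed signal was 25510 to 32970 over the Cy5 extracts and 23890 to 164800 over those in Cy3. Il33 ranked the 4 arrays in the opposite order to these medians. Adipocyte markers were higher in 5 of 7, with medians of 0.16, 0.50, -0.20 and 0.84. Erythroid markers were higher in 4 of 7, with a median of 0.02 and medians per array of -0.83, 0.27, 0.44 and 0.26. These were lowest on array 1 and highest on array 3, as were the ratios of Chil3 and the neutrophil medians. The part of the make-up of the dissected tissue in the ratios of Il33 was not tested.

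The wider type 2 pathway was counted gene by gene. Beside each count, 18.7% of all genes had an unadjusted p under 0.05 and the median log2 ratio of all genes was 0.03. Of 12 receptor genes, 11 had a mean ratio above 0 and the median was 0.35, with 3 genes at an unadjusted p under 0.05, all higher. The exception was Il4ra, the shared chain for interleukin-4 and interleukin-13, whose brightest probe gave -0.24 ± 0.32 (SD, n = 4 arrays) near background and whose second probe gave 0.55 ± 0.66 (SD, n = 4 arrays). Il17rb, the receptor for interleukin-25, had log2 ratios of 0.52, 0.55, 0.51 and 0.73 and a mean of 0.58 ± 0.10 (SD, n = 4 arrays, limma's adjusted p = 0.125). Of 15 signalling genes, 12 were above 0 with a median of 0.32, and 3 had such a p. Stat6, the factor downstream of Il4ra, had a mean of 0.35 ± 0.25 by its brightest probe and -0.21 ± 0.31 by its dimmest (SD, n = 4 arrays).

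Target genes of interleukin-4 and interleukin-13 were divided. Of 21 tested, 12 were higher and 9 lower, with a median of 0.20, and 5 had an unadjusted p under 0.05, all of them higher. Of the 16 measured throughout, 9 were higher and 7 lower, with a median of 0.115. The lowest means of the 21 were those of Ccl17, at -0.585 ± 1.61, and Spdef, at -0.574 ± 0.77 (SD, n = 4 arrays). Ccl8, a chemokine for T helper 2 cells, had Cy5 signals of 1837, 613, 1007 and 574 and Cy3 signals of 787, 586, 569 and 319, and averaged 0.74 ± 0.49 in log2 ratio (SD, n = 4 arrays). Ccl11, the eosinophil chemokine eotaxin, had 666, 370, 557 and 395 in Cy5 and 545, 240, 428 and 202 in Cy3, with a mean of 0.57 ± 0.31 (SD, n = 4 arrays). Clec10a, a galactose lectin of alternatively activated macrophages, had 975.2, 702, 833 and 804 in Cy5 and 663, 507, 611 and 412 in Cy3, with a mean of 0.61 ± 0.24 (SD, n = 4 arrays). All 3 were the higher ones in Cy5 on all arrays, with limma's adjusted p between 0.154 and 0.199. Retnlb, Ccl22 and Slc7a2 were above background on no array.

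Of 12 type 2 lymphocyte genes tested, 8 were above 0 with a median of 0.06, which was -0.07 without array 3, and Il9, Csf2, Il10, Il31 and Ptgdr2 were above background on no array. Icos, a T cell costimulator, had a mean of 0.59 ± 0.52 and Bcl6, a repressor of T helper 2 genes, one of 0.55 ± 0.40 (SD, n = 4 arrays). The classical activation genes were read beside these. Of 12 tested, 10 were above 0 with a median of 0.27, and 3 had an unadjusted p under 0.05, all higher. Tnf, the inflammatory cytokine, had a mean of 0.74 ± 0.41 and Cd86, a costimulatory ligand, one of 0.56 ± 0.29 (SD, n = 4 arrays), with limma's adjusted p of 0.173 and 0.183. Nos2, the inducible nitric oxide synthase that marks the classical state, had a mean of 0.10 ± 0.16 (SD, n = 4 arrays). Genes of the classical list and of the type 2 lists thus both lay mostly above 0. The type 2 counts were 11 of 12 receptors, 12 of 15 signalling genes, 12 of 21 targets and 8 of 12 lymphocyte genes. Of all genes, 54.2% were above 0. No gene of these lists passed limma's test after adjustment.

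**Figure D5:**
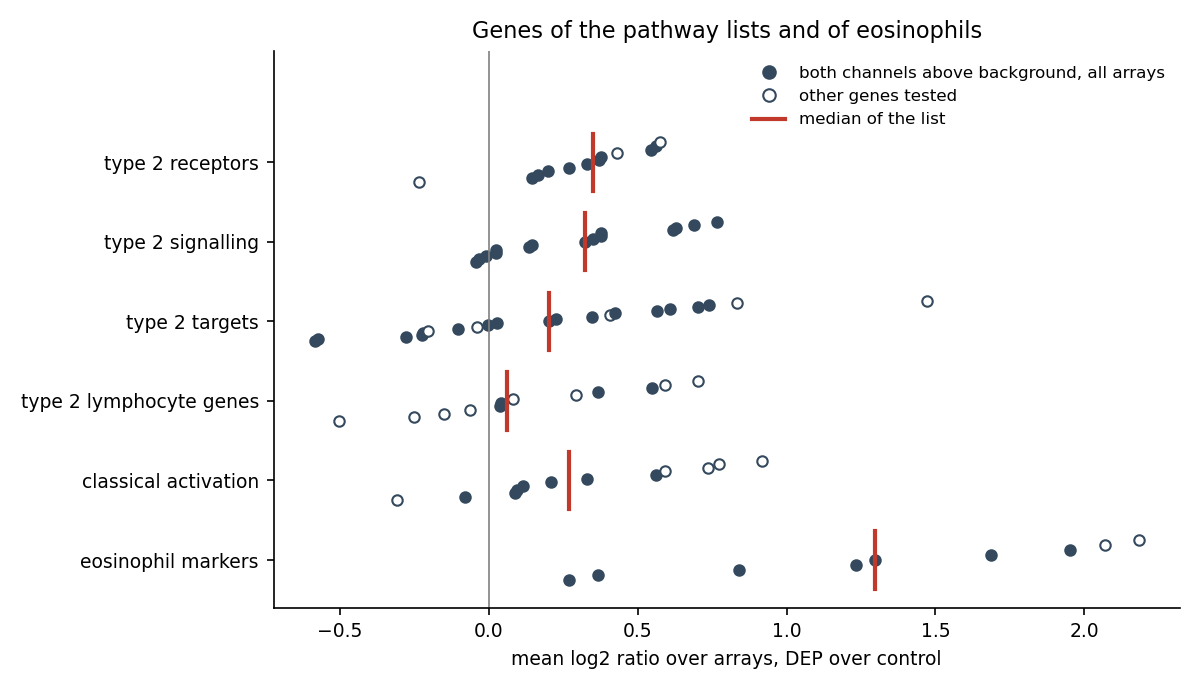
Mean log2 ratio over arrays (DEP over control) of each tested gene in 5 pathway lists and the eosinophil markers, filled where measured throughout (both channels above background on each array), with the list median as a red line. Medians run from 0.06 to 0.35 in the pathway lists and reach 1.30 in the eosinophil markers.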

How the data were processed

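Total RNA from dissected mouse middle ears was hybridised to 4 two-colour arrays (4x44K format), all from the same slide and scan, which leaves no batch to test. Spots were quantified by the authors with Feature Extraction 10.10.1.1. The deposited processed signals are intensities, background-subtracted and dye-normalized within the array, and the deposited log10 ratio is Cy5 over Cy3, written as 0 where none could be given. Ratios were multiplied to the log2 scale. Outlier spots (164 to 274 per array) and spots without a ratio (6179 to 8558 of 43020) were left out, spots of a probe were averaged, and 3 ratios were needed per probe. Accessions were named through the RefSeq table of GRCm38.p6, which matched 27655 of 39429 probes. A gene was read at its brightest probe, and a probe was above background on an array if more than 0.5 of its spots were. An intercept was fitted with lmFit and eBayes in limma 3.58.1 (R 4.3.3). Tables and plots used matplotlib 3.10.9, numpy 2.4.6 and pandas 2.3.3 under Python 3.11.15.

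The share of probes well above background was 65.4% to 68.9% in Cy5 and 59.2% to 68.0% in Cy3, and the number of arrays limits the precision. The Cy3 share was 59.2% on array 3 and 60.3% on array 4, the lowest of the 4 arrays. Correlations of all ratios between arrays ran from -0.22 (arrays 1 and 4) to 0.61 (arrays 1 and 2), and the SD of ratios was 0.97 on array 1 and 0.63 to 0.69 on the others. The fit was tested on simulated data. The members and all gene lists were chosen with earlier results of these data known. A further gene of the set is not reported here, and all counts of members leave it out. Besides the members, paralogues, cluster neighbours and the 3 brightest markers of a cell type, the pathway genes named by rule were those above background in 1 channel on all arrays, of the same sign throughout and at an unadjusted p under 0.05, up to 8 by mean ratio in each direction. Of 13 such genes that were higher, 8 were named, and 0 were lower. For each member measured throughout, the 2 listed genes with the smallest root mean square difference over the 4 ratios were also named. Traf3ip2, Pparg, Cidec, Il2rg and Ctsg were named by this rule alone. Genes named for contrast (Il4ra, Stat6, Nos2, Ccl17, Spdef and those listed as not detected) fall outside these rules. They were chosen after their values were seen.

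Alternatives were normexp (offset 50) with loess or median centring, the deposited ratio table, filters on dim probes, flagged spots kept, an intensity trend, no moderation, and each array left out. Lower bounds were sought for the members and the other listed genes, the study's own lists aside. None was computed, as no probe of these was above background on all arrays of 1 channel and none of the other.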

Additional observations from a re-analysis of the deposited data

Results flagged for a closer look

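In 1 of 16 sets of 4 ratios, 1 array lay far from the others by Dixon's ratio of gap to range past its critical value for 4 samples, and chance alone gives about 1 such set in 20. For the brightest Il17rb probe the ratio of gap to range was 0.831, with array 4 at a log2 ratio of 0.73 and the others between 0.51 and 0.55, a small absolute gap in a set with an SD of 0.10.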

How the results depend on the processing

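The deposited ratio table, flagged spots kept and the intensity trend turned no direction of the members and changed no call after adjustment. Normexp with median centring turned the mean log2 ratio of Il4 to -0.024, of Il5 to -0.082, of Il13 to -0.173 and of the Il1rl1 probe A_55_P2027731 to -0.214, and brought Il1rl1 probe A_55_P2027737 (0.649) and Retnla (0.67) past the threshold. Under median centring Chil3 rose from 0.10 to 0.675, Tslp fell from 0.664 to 0.103 and Il1rl1 probe A_51_P339793 from 1.835 to 0.38. Normexp with loess turned A_55_P2027731 to -0.036 and took Il4 from 0.692 to 0.154, Il5 from 0.772 to 0.099, Il13 from 1.083 to 0.018, Tslp to 0.246 and A_51_P339793 to 0.502. Normexp here adds an offset of 50, which is above the signals of Il4, Il5 and Il13, and the cause of the sign changes was not tested. The count of members past 2-fold fell from 1 to 0 under loess, median centring and both filters on dim probes. The count at an unadjusted p under 0.05 fell from 4 to 3 under the intensity trend, where Il4 left it. It was also 3 under median centring, where Il4 and Il13 left it and Il33 entered at a mean of 0.944. It was 2 under loess and both filters and 1 without moderation. Both filters left out Il4, Il5, Il13 and Tslp, and so fewer members were tested. The receptor median moved from 0.351 to 0.214 under loess, the signalling median from 0.322 to 0.518 under median centring, and the lymphocyte median from 0.061 to 0.367 and 0.204 under the filters on 1 and both channels. The lymphocyte median was below 0 under loess (-0.009), median centring (-0.117) and without array 3 (-0.071), 0.026 without array 1 and 0.239 without array 2. The targets median was 0.109 under loess, 0.115 under the filter on both channels and 0.062 without array 4. The signalling median was 0.19 under loess and 0.144 with the mean of a gene's probes. The classical activation median, 0.27, was between 0.103 and 0.178 under loess, median centring, both filters and the mean of a gene's probes, 0.124 without array 3, 0.145 without array 4 and 0.416 without array 2.

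Leaving out 1 array at a time gave means from -0.248 to 0.225 for A_55_P2027731 and from -0.181 to 0.465 for Chil3. Il5 was at 0.397 without array 2, and without array 1 Tslp was at 0.326 and Il33 at 0.359. Without array 4 Il33 was at 1.074 and Il5 at 1.026. Over the same settings 0 to 3 members were past 2-fold, with 3 without array 4, and 0 to 4 had an unadjusted p under 0.05, with 0 without array 2 and 2 without array 3. Over all genes, 1734 were past 2-fold, against 447 with loess, 603 with median centring, 808 and 577 with the filters, and 2720 without array 4. Of those past 2-fold 35.2% were higher, against 17.7% with loess, 63.9% with median centring and 22.2% with the filter on both channels. Median centring called 3559 of 32360 genes after adjustment, and the main test 0. No paired analysis was possible because the arrays form 1 group of ratios, each already made within an array. Signal over background limits Il4, Il5, Il13, Il25 and Tslp.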
